A study of Mus musculus with 2 samples.

Results

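Cell cycle genes of the mouse were examined for peaks of the vitamin D receptor (VDR) in left ventricle at embryonic stage E16.5. The set holds 49 genes chosen by symbol: cyclins, cyclin-dependent kinases (CDKs) and their inhibitors, the E2F and retinoblastoma families, Myc and p53 regulators, mitotic kinases and replication licensing factors. The choice was made with earlier results of these data known. All 49 were found in the RefSeq gene table (GRCm38.p6, which mm10 corresponds to), among 21887 protein-coding genes on assembled chromosomes. A gene was counted as having a peak when the summit of the peak lay inside its RefSeq span or within 10 kb of either end. ChIP-seq, the sequencing of DNA immunoprecipitated with VDR from chromatin, had been done on 1 sample of embryos from mothers on a normal diet and 1 of embryos from mothers on a vitamin D deficient diet. The labels give no strain, sex, age of the mother, or number of mothers or embryos in a sample. Each diet is represented by a single library without replicates, so the diets could not be compared by a test, and every value below belongs to a library and not to a diet. Peak lists of a single factor hold no expression values, so the tissue label could not be checked against marker genes.

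Cells advance through division as cyclins switch on their CDK partners in turn. D-type cyclins with CDK4 and CDK6 phosphorylate the retinoblastoma proteins, which releases E2F factors to transcribe genes for DNA replication, and cyclin B with CDK1 then drives entry into mitosis. Fetal cardiomyocytes still divide and leave the cell cycle around and after birth. VDR is a nuclear receptor that pairs with a retinoid X receptor on DNA, typically at a direct repeat of 2 half-sites with 3 bases between them, and vitamin D hormone is known to slow the proliferation of many cell types.

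The normal-diet list held 23456 usable peaks and the deficient-diet list 37661. The genome-wide background, taken as the lowest background recovered in a list, was also higher in the deficient-diet list. It was 5.38 fragments per position there, against 2.65 in the normal-diet list. Sequencing depth itself was not measured. List length, background, depth and diet cannot be told apart here.

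At the cell cycle genes, 31 of 49 had a normal-diet peak, which is 63.3% (exact 95% binomial interval 48.3 to 76.6%), where 49.8% of all protein-coding genes had one. A deficient-diet peak was found at 32 of 49, which is 65.3% (50.4 to 78.3%), against 59.5% of all protein-coding genes. The intervals cover counting error only, and both include the share over all genes. Longer genes collect more peaks, so the counts were also set beside the shares of all genes in 5 classes of span length. At those shares 24.5 of the 49 genes would have a normal-diet peak and 29.2 a deficient-diet peak. In the normal-diet list the share among cell cycle genes was above that of all genes in each of the 5 classes. In the deficient-diet list the share was below that of all genes in 2 classes, genes of 5 to 10 kb and of 20 to 50 kb.

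**Figure D1:**
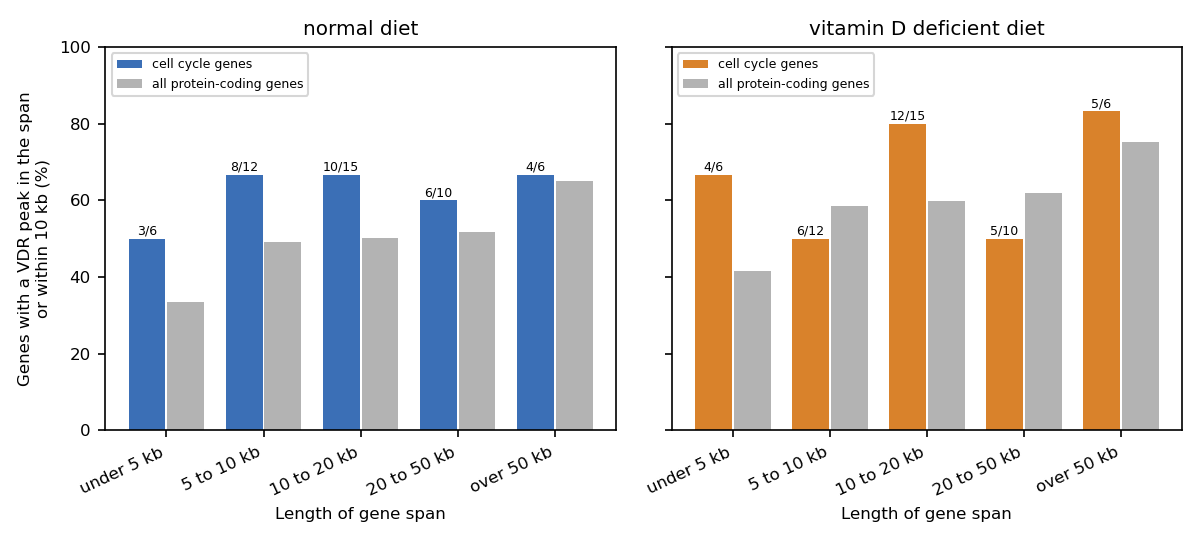
Share of genes with a VDR peak in the span or within 10 kb (y axis, percent) by length of the gene span (x axis), for the normal-diet list on the left and the deficient-diet list on the right. Coloured bars are the 49 cell cycle genes, with the number of genes above each bar, and grey bars all 21887 protein-coding genes. For genes of 10 to 20 kb, 10 of 15 cell cycle genes had a normal-diet peak and 12 of 15 a deficient-diet peak, against 50.1% and 59.9% of all genes.

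The genes divided into 5 states. Peaks of both lists that overlapped by at least 1 bp were found at 15 genes, or 30.6% (18.3 to 45.4%), where 22.5% of all protein-coding genes had such a pair. Both lists had peaks without overlap at 7 genes (14.3%, against 18.1% of all genes). A normal-diet peak alone was found at 9 genes (18.4%, 8.76 to 32.0%, against 9.17%). A deficient-diet peak alone was found at 10 (20.4%, 10.2 to 34.3%, against 18.8%). Both of these intervals include the share over all genes. No peak of either list was found at 8 genes, which is 16.3% (7.32 to 29.7%), while 31.3% of all protein-coding genes had none. The upper bound of that interval lies below the share over all genes, but the genes were not drawn at random and no test was made.

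**Figure D2:**
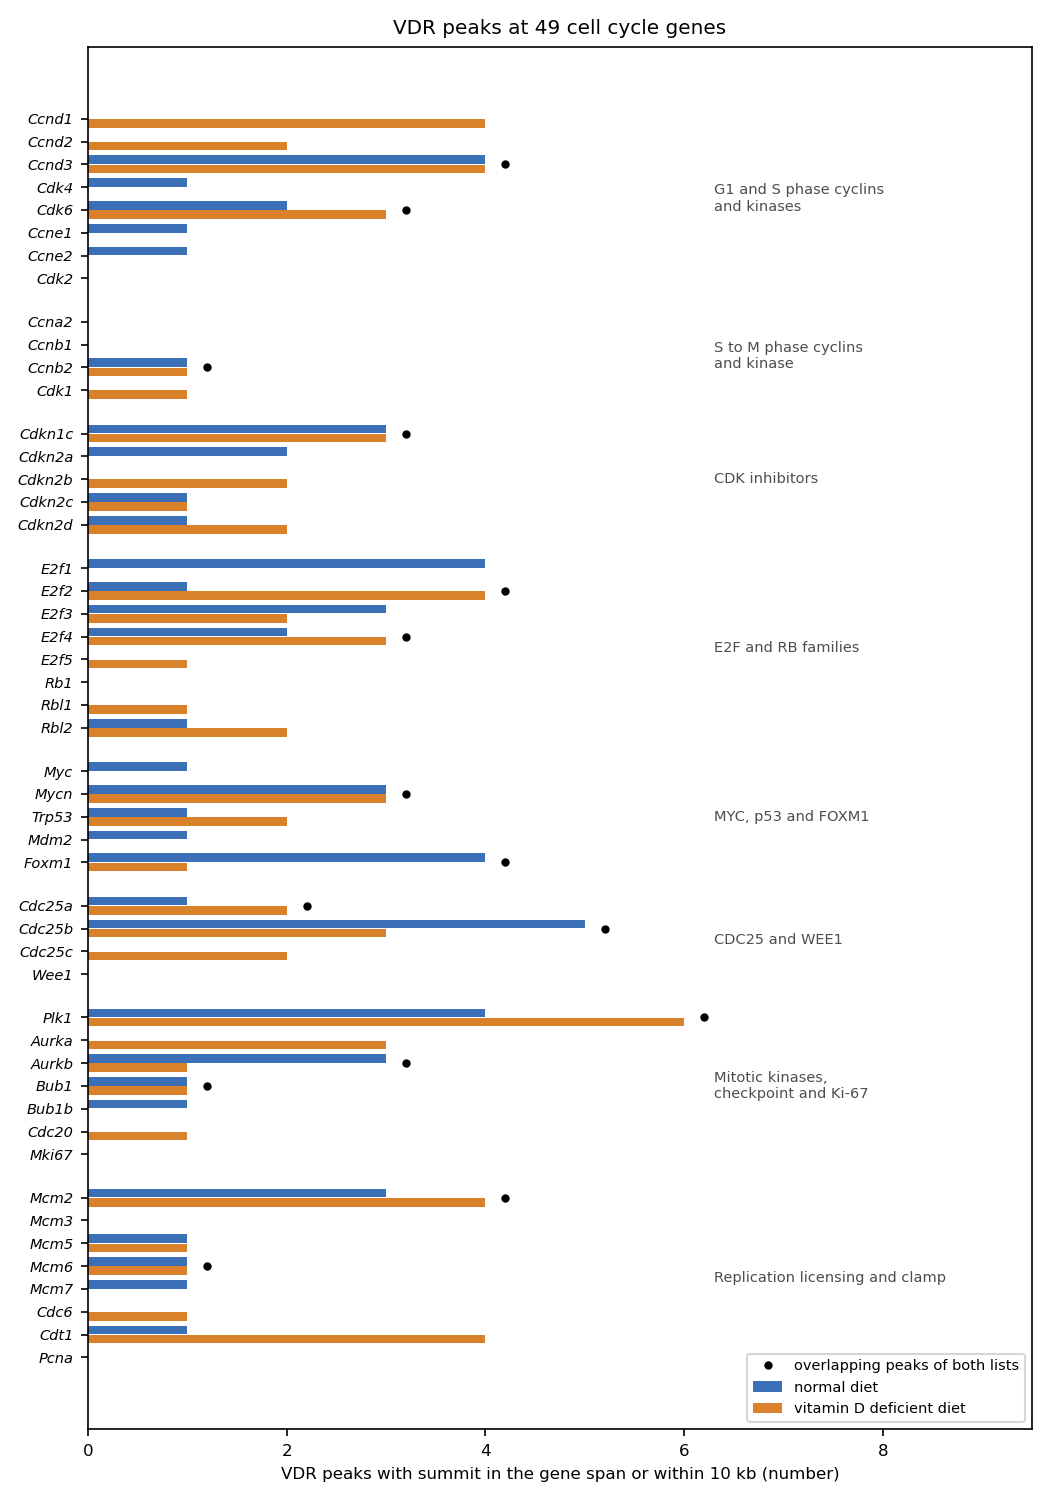
Number of VDR peaks (x axis) at each of the 49 cell cycle genes (y axis), grouped by role. Blue bars are the normal-diet list, orange bars the deficient-diet list, and a black dot marks genes where peaks of both lists overlap. Plk1 had the most deficient-diet peaks, 6, and Cdc25b the most normal-diet peaks, 5, while 8 genes have no bar.

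Together the windows held 60 normal-diet and 72 deficient-diet peaks, where the class means over all genes give 47.5 and 72.0. These peaks were of ordinary strength for their lists. The authors' median -log10 q, the deposited significance of a peak after correction for multiple testing, was 4.30 at cell cycle genes and 4.49 over the normal-diet list, and 3.95 both at these genes and over the deficient-diet list. Median fold enrichment at the summit was 4.38 at cell cycle genes and over the list for the normal diet, and 3.39 against 3.45 for the deficient diet. Summit pileup, the number of fragments covering the summit as recovered from the deposited values, had a median of 16 and a range of 13 to 23 in the normal-diet list, and a median of 22 and a range of 17 to 29 in the other. Local background at these peaks reached at most 1.77 times the genome-wide value in the normal-diet list and 1.62 times in the deficient-diet list. Background equal to the genome-wide value was less common at these peaks than over the lists, at 43.3% against 52.6% for the normal diet and 48.6% against 55.7% for the deficient diet, and median background was 2.97 against 2.65 and 5.46 against 5.38 fragments. The part of background in the counts was not tested.

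**Figure D3:**
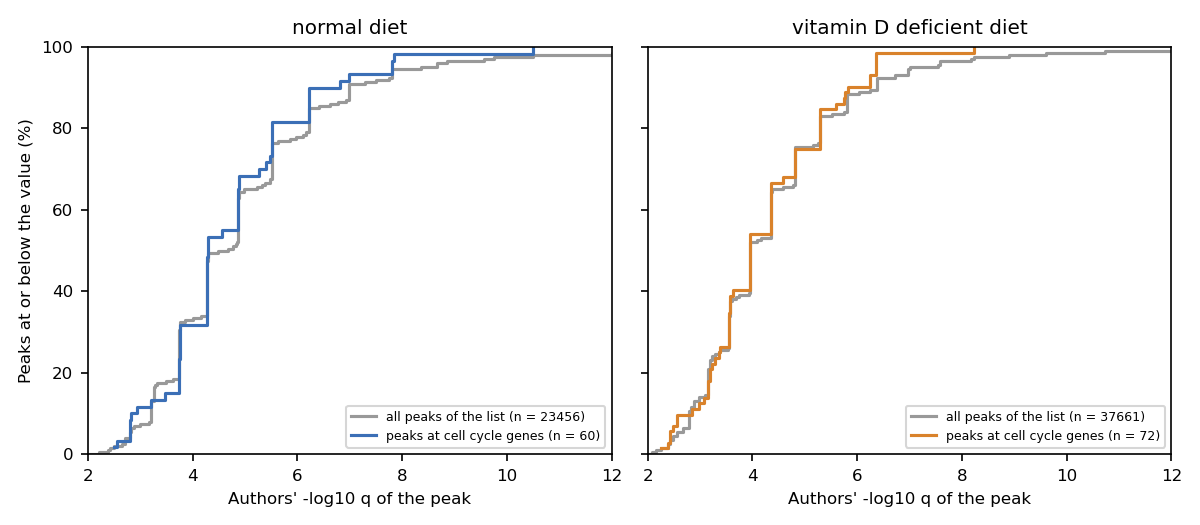
Cumulative share of peaks (y axis, percent) by the authors' -log10 q (x axis, drawn from 2 to 12) for the normal-diet list on the left and the deficient-diet list on the right. Coloured lines are peaks at cell cycle genes (60 and 72 peaks), and grey lines all peaks of each list. The coloured and grey lines run close together, with medians of 4.30 against 4.49 on the left and 3.95 on both lines on the right.

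An overlap with the other list was found for 20 of the 60 normal-diet peaks, a share of 33.3% (21.7 to 46.7%), against 34.0% of the whole list. It was found for 20 of the 72 deficient-diet peaks, a share of 27.8% (17.9 to 39.6%), against 21.3% of the whole list. The 20 pairs overlapped by a median of 162 bp, with 1 bp at Bub1, 2 bp at Aurkb and 5 bp at a site near Cdc25b as the smallest, and 8 pairs had summits within 100 bp of each other. Inside the span of the cell cycle gene lay 13 pairs. The other 7 lay outside it and were nearest to a neighbour: Bysl near Ccnd3, Exoc3l at both E2f4 pairs, Tulp3 near Foxm1, Cenpb near Cdc25b, Mtln near Bub1 and Tpra1 near Mcm2. Over all peaks in the windows, the cell cycle gene was the nearest protein-coding span for 41 of 60 peaks of the normal-diet list and 49 of 72 of the other.

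Peaks near gene starts were counted next. RefSeq starts were used for 36 of the 49 genes. The others were Ccnd1, Ccnd2, Ccne2, Ccna2, Cdkn1c, E2f4, E2f5, Rb1, Myc, Foxm1, Cdc25c, Wee1 and Aurkb. A normal-diet summit lay within 1 kb of a start in 13 of 36 genes, which is 36.1% (20.8 to 53.8%), against 17.1% of the 17492 protein-coding genes with a start. A deficient-diet summit lay there in 11 of 36, which is 30.6% (16.3 to 48.1%), against 18.8%. Both lists had one at 5 genes, Ccnb2, Cdc25a, Cdc25b, Plk1 and Mcm6, which is 13.9% (4.67 to 29.5%), against 7.20%. The normal-diet interval for starts lies above the share over all genes, the deficient-diet one includes it, and no test was made. By either end of the span, which can be assessed for all 49, a summit within 1 kb was found at 17 genes in the normal-diet list (34.7%, against 18.5% of all protein-coding genes) and at 13 in the deficient-diet list (26.5%, against 21.9%).

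**Figure D4:**
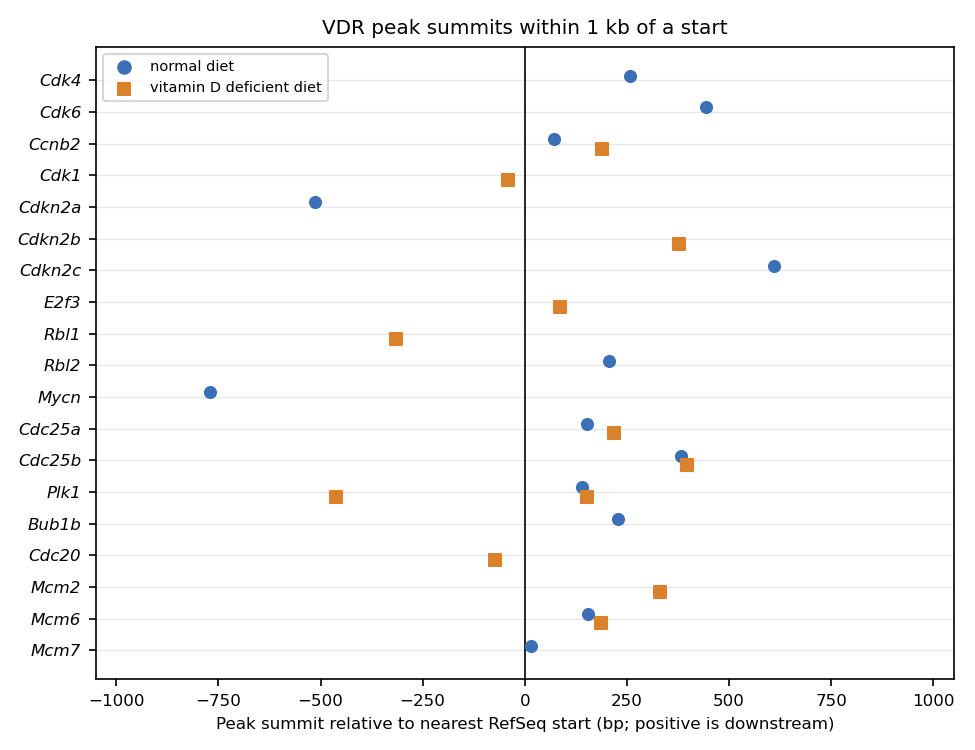
Position of each VDR peak summit relative to the nearest RefSeq start (x axis, bp, positive downstream) for the 19 cell cycle genes with a summit within 1 kb of a start (y axis). Blue circles are normal-diet and orange squares deficient-diet summits. Most lie just downstream of the start, and at Ccnb2, Cdc25a, Cdc25b, Plk1 and Mcm6 a summit of each list lies downstream.

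Most of these summits sat downstream of the start, 11 of 13 in the normal-diet list and 8 of 12 in the deficient-diet list. Over all genes with a start, 69.5% and 70.5% of summits within 1 kb were downstream. The closest summits were those of Mcm7 (15 bp downstream, normal diet), Cdk1 (41 bp upstream, deficient diet), Ccnb2 (71 bp downstream, normal diet), Cdc20 (73 bp upstream, deficient diet) and E2f3 (87 bp downstream, deficient diet).

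A peak reached into the 250 bases before the start at 6 genes, and those bases are shown because they let the peak be read against the promoter motifs of these genes. Each line gives the RefSeq sequence of GRCm38.p6 from 250 bases before the start up to the start, 5′ to 3′ on the strand of the gene. Capitals mark the bases inside a VDR peak of either list.
Ccnb2: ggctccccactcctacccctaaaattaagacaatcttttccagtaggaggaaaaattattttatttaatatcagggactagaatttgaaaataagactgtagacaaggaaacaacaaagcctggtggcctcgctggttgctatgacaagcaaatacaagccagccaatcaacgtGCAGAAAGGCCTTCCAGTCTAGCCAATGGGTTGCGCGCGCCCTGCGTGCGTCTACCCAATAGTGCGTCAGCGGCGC
Cdk1: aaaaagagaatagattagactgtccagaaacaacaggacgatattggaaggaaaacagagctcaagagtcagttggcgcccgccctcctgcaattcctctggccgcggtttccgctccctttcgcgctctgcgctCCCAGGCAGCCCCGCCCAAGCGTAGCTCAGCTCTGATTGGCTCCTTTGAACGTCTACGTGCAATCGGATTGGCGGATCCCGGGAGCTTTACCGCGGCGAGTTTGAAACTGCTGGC
Cdc20: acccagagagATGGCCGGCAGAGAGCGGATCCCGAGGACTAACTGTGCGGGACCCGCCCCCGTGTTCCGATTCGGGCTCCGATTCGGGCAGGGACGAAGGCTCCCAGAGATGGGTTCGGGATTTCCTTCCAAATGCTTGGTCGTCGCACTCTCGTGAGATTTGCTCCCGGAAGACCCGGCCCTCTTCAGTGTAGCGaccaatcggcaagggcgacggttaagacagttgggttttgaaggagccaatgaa
Plk1: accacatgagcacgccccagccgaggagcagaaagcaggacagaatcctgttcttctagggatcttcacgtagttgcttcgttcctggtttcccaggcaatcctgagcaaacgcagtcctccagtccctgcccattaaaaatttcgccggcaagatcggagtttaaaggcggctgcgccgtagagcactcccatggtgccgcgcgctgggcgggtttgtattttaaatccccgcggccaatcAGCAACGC
Mcm7: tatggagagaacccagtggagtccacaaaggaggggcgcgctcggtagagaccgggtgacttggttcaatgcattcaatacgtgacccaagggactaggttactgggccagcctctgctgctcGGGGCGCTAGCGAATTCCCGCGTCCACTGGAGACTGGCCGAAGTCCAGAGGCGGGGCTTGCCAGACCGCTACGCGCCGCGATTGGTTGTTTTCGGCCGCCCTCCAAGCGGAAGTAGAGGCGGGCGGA
Rbl2: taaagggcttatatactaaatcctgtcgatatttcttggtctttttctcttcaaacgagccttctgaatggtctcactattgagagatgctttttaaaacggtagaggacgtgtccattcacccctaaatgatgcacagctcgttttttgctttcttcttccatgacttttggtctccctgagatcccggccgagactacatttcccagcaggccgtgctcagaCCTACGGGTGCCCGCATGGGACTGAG
The capitals come from the normal-diet list alone at Mcm7 (127 bases), Plk1 (8 bases) and Rbl2 (26 bases), from the deficient-diet list alone at Cdc20 (186 bases) and Cdk1 (115 bases), and from both at Ccnb2, where the normal-diet peak covered 76 and the deficient-diet peak 19 of the bases. At Ccnb2, Plk1 and Rbl2 the summit and most of each of these peaks lay downstream of the start. At Mcm7 the summit also lay just downstream, while most of the peak lay before the start. Coordinates of these windows are chr9:70421555-70421804 (minus strand) for Ccnb2, chr10:69352913-69353162 (minus) for Cdk1, chr4:118437344-118437593 (minus) for Cdc20, chr7:122159185-122159434 (plus) for Plk1, chr5:138171267-138171516 (minus) for Mcm7 and chr8:91069807-91070056 (plus) for Rbl2.

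Motifs were searched on both strands of the 250 bases before each of the 42 starts of the 36 genes. The VDR half-site was searched as the word AGGTCA, the word GGGTCA, the word AGTTCA or the word GGTTCA. The direct repeat was any pair of those words with 3 bases of any kind between them. The CCAAT box was searched as CCAAT, the cell cycle homology region (CHR) as TTTGAA and the GC box as GGGCGG. E2F sites were searched as the word TTCCCGC or the word TTGGCGC. Matches of different motifs can overlap. The VDR direct repeat was in none of the 42 windows and in 0.0376% of the 21263 windows of protein-coding genes. At so low a share, 42 windows would be likely to hold none. The windows end at the start, and most summits within 1 kb of a start lay downstream. The bases under those downstream summits were not searched. A half-site was in 15 of 42 windows (35.7%, against 36.5% of all). CCAAT was in 26 of 42 (61.9%, against 35.4%), TTTGAA in 10 of 42 (23.8%, against 14.5%), an E2F word in 14 of 42 (33.3%, against 7.20%) and the GC box in 30 of 42 (71.4%, against 42.6%). In the sequences shown, the capitals of Cdk1 hold CCAAT on the opposite strand, first letters 80 and 48 bases before the start, and TTTGAA at 71 and 15 bases. Those of Ccnb2 hold CCAAT at 54 and 21 bases, and those of Mcm7 hold TTCCCGC at 113 bases and CCAAT on the opposite strand at 47 bases. Outside the peaks, in lower case, Cdc20 holds CCAAT at 53 and 8 bases and TTTGAA at 18, Plk1 CCAAT at 14, Ccnb2 CCAAT at 87 and TTTGAA at 167, Cdk1 CCAAT on the opposite strand at 208 and TTGGCGC at 178, and Rbl2 TTTGAA on the opposite strand at 201. GC boxes lie inside the peaks of Cdc20, Cdk1 and Mcm7 and outside those of Cdk1 and Plk1. Of the sequences shown, only that of Mcm7 held a half-site, at 188 and 168 bases, outside the peak. A match describes the letters and is not evidence of binding.

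The roles hold 4 to 8 genes each. For each of the 8 roles the exact 95% intervals of the shares with a normal-diet peak, a deficient-diet peak and an overlapping pair include the shares over all protein-coding genes (49.8%, 59.5% and 22.5%). With so few genes the intervals are wide, so this inclusion says little about any role. Among the cyclins and kinases of G1 and S phase, 5 of 8 genes had a normal-diet peak (62.5%, 24.5 to 91.5%) and 4 of 8 a deficient-diet peak (interval 15.7 to 84.3%). The D-type cyclins, which carry growth signals to CDK4 and CDK6, differed from one another. Ccnd1 (chromosome 7) had 4 deficient-diet peaks and no normal-diet peak, the nearest normal-diet summit lying 33106 bp from the span. The pileups of its 4 peaks were 22, 20, 28 and 25 fragments, and 2 of them lay inside the neighbouring LTO1 span. Ccnd2 (chromosome 6) also had deficient-diet peaks alone, 2 inside the span with pileups of 20 and 24. Ccnd3 (chromosome 17) had 4 peaks in each list. One Ccnd3 pair overlapped inside the span by 162 bp, 18225 bp from the nearest start, with 15 fragments at the normal-diet and 25 at the deficient-diet summit. The -log10 q values of that pair were 2.49 (normal diet) and 4.36 (deficient diet).

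Cdk6, a kinase partner of the D-type cyclins, held the strongest normal-diet peak of the set. It spanned 3344170 to 3344591 of chromosome 5, and the summit was 444 bp downstream of the start. Its pileup of 23 stood over a background of 2.65, and its -log10 q of 10.5 is rank 496 of 23456. No deficient-diet peak overlapped it. A weaker Cdk6 pair, overlapping by 80 bp, had summits 1625 bp (normal diet) and 1833 bp (deficient diet) upstream of that start. Pileups were 17 in both lists, but over backgrounds of 2.65 (normal diet) and 5.38 (deficient diet). The -log10 q values of that pair were 5.51 (normal diet) and 2.43 (deficient diet). Cdk4 had a normal-diet peak alone, 257 bp downstream of its start with a -log10 q of 2.56. Ccne1 and Ccne2, the E-type cyclins that activate CDK2 at the start of DNA replication, each had 1 normal-diet peak and none for the deficient diet. Cdk2 had no peak, with the nearest summits 16319 bp (normal diet) and 16267 bp (deficient diet) away. Pairs of nearest distances below are in this order.

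Of the cyclins and kinase of S to M phase, Ccnb2 and Cdk1 had peaks and Ccna2 and Ccnb1 had none. Ccnb2, a B-type cyclin, had 1 peak in each list at its start on chromosome 9, spanning 70421400 to 70421630 (normal diet) and 70421270 to 70421573 (deficient diet). The pileups were 18 and 25, and the -log10 q values of 6.22 and 5.29 placed them at rank 4573 of 23456 and rank 8597 of 37661. With both lists limited to a -log10 q of 5 or more, Ccnb2 alone of the 15 genes still had an overlapping pair, which is 2.04% of the set against 3.96% of all protein-coding genes. The Ccnb2 pair was lost when summits had to lie within 100 bp and when peaks were limited to the genome-wide background. Cdk1, the kinase that drives mitosis, had a single deficient-diet peak over its start on chromosome 10 from 69352834 to 69353027, with a pileup of 24 and a -log10 q of 5.29. The nearest normal-diet summit to Cdk1 was 99352 bp away. Ccnb1 lay 212138 bp from a normal-diet and 46763 bp from a deficient-diet summit, and Ccna2 40457 and 27554 bp.

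All 5 CDK inhibitors of the set had a peak of either list, where 68.7% of all protein-coding genes had one. In each list 4 of the 5 had a peak (80.0%, 28.4 to 99.5%), where the shares over all genes were 49.8% and 59.5%. Cdkn1c alone of the 5 had an overlapping pair, where 22.5% of all genes had one. The CDK inhibitors Cdkn1a and Cdkn1b are not among the 5 but in the second list described below. Cdkn1a had peaks of both lists without overlap, and Cdkn1b had a normal-diet peak alone. Cdkn1c encodes p57, an imprinted inhibitor of cyclin and CDK complexes. Its span of 2721 bp on chromosome 7 held 3 normal-diet peaks with pileups of 19, 16 and 18 and -log10 q values of 6.98, 4.87 and 5.51. The middle one, from 143459837 to 143460073, overlapped by 192 bp the single deficient-diet peak in the span, which had a pileup of 21. Cdkn1c had 13.2 peaks per 100 kb of window in either list, second in the set to Cdc25b (15.6) for the normal diet and behind Plk1, Cdt1 and Ccnd1 (19.7, 15.9 and 13.4) for the deficient diet. The other deficient-diet peaks at Cdkn1c lay outside the span, 1605 and 9074 bp from an end.

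The INK4 inhibitors bind CDK4 and CDK6. At the neighbouring Cdkn2a and Cdkn2b genes on chromosome 4 the lists did not coincide. Cdkn2a, which also encodes the p53 activator ARF, had 2 normal-diet peaks, 514 and 1015 bp upstream of its outer start, with pileups of 17 and 15. The nearest deficient-diet summit to Cdkn2a was 12383 bp away. Cdkn2b had 2 deficient-diet peaks inside its span, with pileups of 22 and 29, the latter 377 bp downstream of the start with a -log10 q of 6.24. The nearest normal-diet summit to Cdkn2b was 10655 bp away, just beyond the 10 kb limit. Cdkn2c had 1 normal-diet peak, 609 bp downstream of a start with a -log10 q of 6.81, and 1 deficient-diet peak outside the span. Cdkn2d had 1 normal-diet and 2 deficient-diet peaks, all nearer to the neighbours Kri1 or Ap1m2 than to Cdkn2d.

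**Figure D5:**
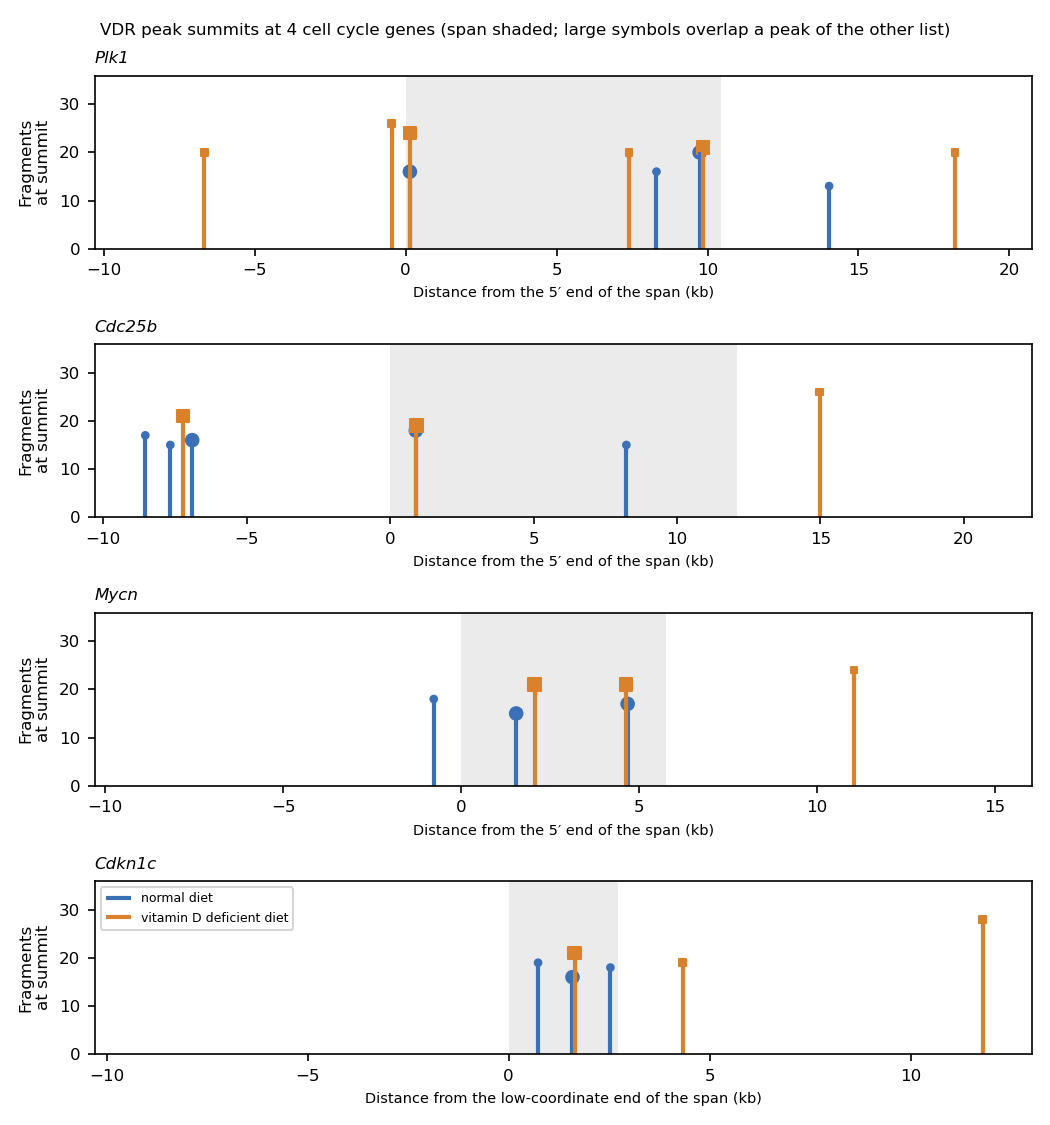
VDR peak summits at Plk1, Cdc25b, Mycn and Cdkn1c by distance from an end of the span (x axis, kb) and number of fragments at the summit (y axis). Blue is the normal-diet and orange the deficient-diet list, the span is shaded, and large symbols overlap a peak of the other list. Overlapping summits lie inside all 4 spans, and since background is higher in the deficient-diet list, heights compare only within a list.

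In the E2F and retinoblastoma families, 5 of 8 genes had a normal-diet peak (62.5%, against 49.8% of all genes) and 6 of 8 a deficient-diet peak (75.0%, against 59.5%). E2f1, an activator of S phase genes, had 4 normal-diet peaks and no deficient-diet peak, with the nearest deficient-diet summit 60455 bp away. Only 1 of the 4 lay inside the E2f1 span, and the others lay within the neighbouring Necab3. The E2f1 peak inside the span, on chromosome 2 from 154564243 to 154564484, had 20 fragments at its summit and a -log10 q of 7.80, and the strongest, 7144 bp outside the span within Necab3 and Actl10, had 21 and 7.85. E2f2 was the reverse in number, with 1 normal-diet and 4 deficient-diet peaks. The single E2f2 normal-diet peak, with a pileup of 16, overlapped by 154 bp a deficient-diet peak with a pileup of 24, inside the span on chromosome 4.

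E2f3, another activator, had 3 normal-diet and 2 deficient-diet peaks without overlap, 1 of the latter 87 bp from a start with a -log10 q of 2.39. E2f4, which mainly represses together with the retinoblastoma relatives, had 2 overlapping pairs, both inside the span of Exoc3l, and no peak inside its own span. E2f5 had 1 deficient-diet peak 5076 bp outside the span. Rb1, the retinoblastoma gene, had no peak over a span of 133094 bp, and the nearest summits were 227157 and 184606 bp away. Among all genes over 50 kb, 16.3% had no peak in either list. Its relatives had peaks near their starts, Rbl2 in the normal-diet list (206 bp downstream, pileup 19, -log10 q 6.22) and Rbl1 in the deficient-diet list (316 bp upstream, pileup 20, -log10 q 2.57).

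Myc, Mycn, Trp53, Mdm2 and Foxm1 all had a normal-diet peak, and Mycn, Trp53 and Foxm1 also a deficient-diet peak. Mycn, which drives growth of the fetal ventricle wall, had 3 peaks in each list on chromosome 12, of which 2 pairs overlapped inside the span of 5744 bp. The first Mycn pair overlapped by 177 bp, with summits 51 bp apart and pileups of 17 (normal diet) and 21 (deficient diet). The second overlapped by 66 bp with summits 520 bp apart and pileups of 15 and 21. Myc had 1 normal-diet peak inside its span, with a pileup of 15, and its nearest deficient-diet summit was 79752 bp away.

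Trp53, which encodes p53, had 1 normal-diet peak (pileup 15) and 2 deficient-diet peaks (pileups 25 and 23) toward the far end of the gene, without overlap. Mdm2, whose product marks p53 for degradation, had 1 normal-diet peak, which lay in the neighbouring Cpm. Foxm1, an activator of mitotic genes, had 3 normal-diet peaks inside its span with pileups of 17, 17 and 15, and no deficient-diet peak there. Its overlapping pair lay outside the span, nearest to Tulp3, with -log10 q values of 3.74 (normal diet) and 2.49 (deficient diet).

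The CDC25 phosphatases remove the inhibitory phosphate that WEE1 places on CDKs. All 3 had a peak of either list, where 68.7% of all protein-coding genes had one. Wee1 had none, with the nearest summits 103456 and 30459 bp away. Cdc25a had a pair at its start on chromosome 9, spanning 109875611 to 109875864 (normal diet, pileup 15) and 109875732 to 109875927 (deficient diet, pileup 26). It also held the strongest deficient-diet peak of the set, from 109884327 to 109884533 inside the span, where 29 fragments stood over a background of 5.38. Its -log10 q of 8.23 is rank 1079 of 37661. The next highest deficient-diet value, 6.37, was shared by peaks at Cdc25a, Cdc25b, E2f3 and E2f4.

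Cdc25b had 5 normal-diet and 3 deficient-diet peaks on chromosome 2. Its pair inside the span had summits 15 bp apart, 383 and 398 bp downstream of the start. Pileups were 18 (normal diet) and 19 (deficient diet), over backgrounds of 2.65 and 5.38, with -log10 q values of 6.22 and 3.16. The other pair, and 2 further normal-diet peaks, lay in Cenpb. Cdc25c had 2 deficient-diet peaks inside its span, with pileups of 28 and 21, and the nearest normal-diet summit was 19488 bp away.

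Among the mitotic genes, Plk1, a kinase of mitotic entry and spindle assembly, had the most peaks. On chromosome 7 it had 4 normal-diet peaks with pileups of 16, 16, 20 and 13, and 6 deficient-diet peaks with pileups of 20, 26, 24, 20, 21 and 20. The last peak of each list in this order lay in the neighbouring Ern2. The first deficient-diet peak was nearest to Dctn5. One Plk1 pair lay at the start, spanning 122159427 to 122159737 (normal diet) and 122159545 to 122159715 (deficient diet), with summits 12 bp apart. The other lay near the far end, spanning 122169011 to 122169311 (normal diet) and 122169149 to 122169431 (deficient diet), where the normal-diet peak had a -log10 q of 7.80 and rank 1669. Plk1 had 19.7 deficient-diet and 13.1 normal-diet peaks per 100 kb of window.

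The Aurora kinases act on centrosomes (Aurka) and on chromosome attachment (Aurkb). Aurka had 3 deficient-diet peaks with pileups of 24, 19 and 20 and no normal-diet peak within its window, the nearest lying 10034 bp from the span. Aurkb had 3 normal-diet peaks and 1 deficient-diet peak, and the pair inside its span met over 2 bp. The other normal-diet peaks at Aurkb lay in the neighbouring Borcs6. Bub1 and Bub1b encode spindle checkpoint kinases. Bub1b had 1 normal-diet peak, 229 bp downstream of its start with a pileup of 16. The peaks of Bub1 lay 6758 and 6347 bp outside its span and met over 1 bp. Cdc20, the activator of the anaphase-promoting complex, had a single deficient-diet peak 73 bp upstream of its start, with a pileup of 23 and a -log10 q of 2.98. Mki67, which encodes the proliferation marker Ki-67, had none, with the nearest summits 120588 and 22603 bp away.

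Of the replication genes, 5 of 8 had a peak in each list (62.5%), where the shares over all genes were 49.8% and 59.5%. The MCM proteins form the helicase loaded onto origins of replication. Mcm6 had a pair at its start on chromosome 1, spanning 128359420 to 128359600 (normal diet, pileup 15) and 128359360 to 128359622 (deficient diet, pileup 23), with summits 32 bp apart. Mcm2 had 3 normal-diet and 4 deficient-diet peaks. The Mcm2 pair had summits 1 bp apart, 3156 bp upstream of the start on chromosome 6 and 315 bp from Tpra1 in the normal-diet list, with pileups of 17 and 29. Mcm7 had a normal-diet peak alone, at its start, with a pileup of 15 and a -log10 q of 2.83. Mcm5 had 1 peak in each list without overlap, and Mcm3 had none, with the nearest summits 204614 and 69442 bp away.

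Cdt1 and Cdc6 load the MCM helicase. Cdt1 had 1 normal-diet peak, inside the neighbouring Aprt, and 4 deficient-diet peaks with pileups of 25, 23, 21 and 21, 2 of them inside its span. Cdc6 had 1 deficient-diet peak, which lay in the neighbouring retinoic acid receptor gene Rara. Pcna, the sliding clamp of DNA polymerase, had none, with the nearest summits 52054 and 18873 bp away.

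Summits between 9 and 11 kb from a span show what the limit of 10 kb took in. Just inside it lay those at Aurkb (9241 bp, normal diet), Cdkn1c, Cdkn2d and Rbl2 (9074, 9081 and 9672 bp, deficient diet). Just outside lay those at Aurka, E2f4, Cdkn2b and Bub1b (10034, 10531, 10655 and 10840 bp, normal diet) and at Cdc25b and Rbl1 (10762 and 10814 bp, deficient diet). Where only peaks whose nearest protein-coding span was the cell cycle gene itself were counted, 53.1% of the set had a normal-diet peak against 40.6% of all genes, and 51.0% a deficient-diet peak against 50.3%. With the deficient-diet list shortened to the length of the normal-diet list, 51.0% of the set had a deficient-diet peak against 47.2% of all genes.

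A second list of 71 cell cycle genes, including the origin recognition complex, GINS, anaphase-promoting complex, centromere and DNA damage checkpoint genes, was counted in the same way, and its difference from the 49 genes was not tested. A normal-diet peak was found at 34 of 71, which is 47.9% (35.9 to 60.1%, against 49.8% of all protein-coding genes), and a deficient-diet peak at 38 of 71, which is 53.5% (41.3 to 65.5%, against 59.5%). These intervals, and those of overlapping pairs, overlap the intervals of the 49 genes. Overlapping pairs were found at 11 of 71, which is 15.5% (8.0 to 26.0%, against 22.5% of all genes): Orc2, Lin9, Gins1, Mad1l1, Cdc16, Fzr1, Prim1, Birc5, Mnat1, Pkmyt1 and Ccnf. At the shares of all genes in the same length classes, 37.8, 44.9 and 16.7 genes would have had a normal-diet peak, a deficient-diet peak and a pair. No peak of either list was found at 19 of 71 (26.8%, 16.9 to 38.6%), where 31.3% of all protein-coding genes had none. The class shares give 19.1 genes without a peak, so the low share without a peak among the 49 genes was not seen here. Near starts, 15 of 61 had a normal-diet summit within 1 kb (24.6%, 14.5 to 37.3%, against 17.1% of all genes with a start). A deficient-diet summit was there in 9 of 61 (14.8%, 6.98 to 26.2%, against 18.8%), and both in 1 (1.64%, against 7.20%), so these 2 shares were below those of all genes. The strongest peaks of this list were a normal-diet peak at Orc2, an origin recognition subunit, with a pileup of 26 and a -log10 q of 13.4, and a deficient-diet peak at E2f8, a repressive E2F, with 29 and 8.23.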

How the data were processed

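The authors deposited 1 narrowPeak list per sample on mm10, per the file headers. The submitters' processing notes name SAMtools and MACS2 without versions, and the threshold and control library are not given in the sources used here. The deposited fold enrichment is a ratio over local background, and the deposited -log10 p and -log10 q are the authors' significance of each peak. These values describe and rank peaks within a list. In the normal-diet list, end and score are joined by a point and were split, and 1 of 23457 peaks without a start was left out.

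Pileup and background at the summit were recovered by taking fold enrichment as pileup plus 1 over background plus 1 and p as a Poisson upper tail. A whole number gave the deposited -log10 p within 0.000293 in every peak. No header states this reading. The recovery and the overlap step were tested on simulated data.

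Spans and starts came from RefSeq tables of GRCm38.p6. Counting was done in Python 3.11.15 with pandas 2.3.3 and scipy 1.17.1. Peaks overlapping by 1 bp or more were called overlapping. Intervals are exact binomial (Clopper-Pearson) at 95%. Members described in most detail were mainly those with an overlapping pair, a summit within 1 kb of an end or start, or 1 of the 3 highest -log10 q values of a list. Not every peak of these members was described. Members, lists and motifs were chosen with earlier results of these data known. No comparison with randomly drawn genes was made.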

Additional observations from a re-analysis of the deposited data

How the results depend on the processing

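All alternatives were planned. Of 59 recomputed counts of 7 results, 36 stayed within 1.5 times of the value reported and 23 did not. Of the 36, 3 normal-diet counts could not change, since equal length shortens the deficient-diet list. Fewer peaks or narrower windows give lower counts by construction. Limited to a -log10 q of 5 or more, 14 genes had a normal-diet and 15 a deficient-diet peak, 1 had overlapping peaks, 8 and 5 had a summit within 1 kb of an end, and 19 and 18 peaks were left. The shares of genes were 28.6% against 24.5% of all protein-coding genes with a normal-diet peak, 30.6% against 25% with a deficient-diet peak, 2.04% against 3.96% with overlapping peaks, and 16.3% against 6.69% and 10.2% against 5.40% near an end. Keeping only peaks whose background equals the genome-wide value gave 17, 20, 8, 9 and 7 genes in the same order, and 26 and 35 peaks, with shares of 16.3% against 10.8% for overlapping peaks, 18.4% against 8.83% and 14.3% against 11.9% near an end. Inside the span alone, 21 genes had a deficient-diet peak, with 35 normal-diet and 37 deficient-diet peaks, and within 1 kb of the span there were 39 and 42 peaks. A distance of 3 kb from an end gave 27 and 24 genes (55.1% against 28.6% of all, and 24 of 49 against 34.8%). Lists of equal length left 44 deficient-diet peaks, and counting summits within 100 bp as overlapping left 8 genes (16.3% against 13.9%). Of 165 pair counts at the 15 genes with overlapping peaks, 69 moved by more than 1.5 times. At least 1 pair was kept at Cdkn1c, Mycn, Cdc25a, Cdc25b, Plk1 and Mcm6 under every alternative other than the limit on -log10 q. Mycn, Cdc25b and Plk1, with 2 pairs each, fell to 1 under some of these alternatives. Cdk6, Foxm1 and Aurkb had no pair left with equal lengths, and Cdk6, E2f4, Aurkb and Bub1 none with overlap by 50% of both peaks. E2f4, Foxm1, Bub1 and Mcm2 had none inside the span alone or within 1 kb of it. The same 4 genes had none when the nearest span had to be the gene itself. Within 5 kb, Foxm1 and Bub1 had none. With summits within 100 bp, none was left at Ccnd3, Cdk6, Ccnb2, E2f2, E2f4, Aurkb and Bub1. At the genome-wide background, none was left at Ccnd3, Ccnb2, E2f4, Foxm1, Aurkb, Bub1 and Mcm2. The share of cell cycle genes with a normal-diet peak was above that of all protein-coding genes under each of the 8 alternatives that could change it, closest with 34.7% against 33.0% for peaks at the genome-wide background. For the deficient diet it was below with spans alone (42.9% against 43.8%) and at the genome-wide background (40.8% against 43.8%). No paired analysis was possible because a diet comes with a single library, and none could be left out. The peaks rested on 13 to 29 fragments at the summit, which limits the placing of summits and the overlap of peaks.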

Other observations

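The CHR word TTTGAA, which lies in promoters of genes expressed in G2 and M phase, was in 8 of the 21 windows of 250 bases before a cell cycle gene start that had a VDR summit of either list within 1 kb, and in 2 of the 21 windows without one. Over all protein-coding genes the order was the other way, with TTTGAA in 9.27% of 5676 such windows with a summit and in 16.4% of those without. GC content showed a similar turn. Its median was 56.4% in the cell cycle windows with a summit and 63.6% in those without, while over all genes it was 61.2% with and 53.2% without. E2F words were in 9 of 21 cell cycle windows with and 5 of 21 without a summit, and in 9.97% and 6.18% of all windows. The other motifs were nearly even between cell cycle windows with and without a summit: the VDR half-site in 7 and 8 of 21 (33.7% and 37.5% of all windows), CCAAT in 12 and 14 (35.0% and 35.5%) and the GC box in 15 and 15 (57.9% and 37.1%). Some genes have 2 starts whose windows are counted separately. These counts were noticed after the values were seen and were not tested.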
